A study of Arabidopsis thaliana with 4 samples.

Results

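A stretch of Arabidopsis chromosome 1 from AT1G20910 to AT1G27530 is described here, gene by gene, in nlp7-1 and wild-type roots. Its members are the probe sets that GEO's platform annotation gives to a single gene of this stretch. AT1G25550, AT1G26380 and AT1G26420 lie between the ends and were left out by the rule. This gave 314 probe sets for 308 genes, out of 22746 probe sets on the array after removal of controls and 13217 placed genes that a probe set names alone. The stretch was chosen by the nlp7-1 over wild-type differences of its genes in these same 4 arrays, so every genotype difference below describes the segment and none is a test of it. RefSeq lists 621 protein-coding genes in the same stretch. The members are 299 protein-coding genes and 9 pseudogenes, and only 29 of them have a symbol in the gene table.

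The samples were whole roots at 5 dai of the nlp7-1 mutant (2 samples) and of wild-type Col-0 plants (2 samples), cut at the junction with the hypocotyl and grown without treatment at 22 °C in 16 h days on MS agar. Each sample pooled about 60 roots and was hybridised to 1 Affymetrix ATH1 array. Both genotypes are in the Col-0 ecotype, per the labels, which do not describe the lesion of nlp7-1 or the history of the line. The annotation gives NLP7 itself 0 probe sets, so the genotype labels were not checked on the mutated gene. Values are MAS5 signals, a linear brightness in arbitrary units, with a trimmed mean of 248 on every array. The median signal over all probe sets was 99.6 and 99.3 in the nlp7-1 arrays and 100.8 and 97.5 in the wild-type arrays. Of 15 listed root markers, 4 had a named probe set, and PYK10 (AT3G09260), a root beta-glucosidase gene, had signals of 12548 and 12307 in nlp7-1 and 12794 and 12755 in wild type. For the root cap marker RCPG the signals were 119.3 and 91.4 in nlp7-1, against 74.4 and 39.6 in wild type, a log2 change of 0.94. PRX57 and PRX39, root peroxidase genes, had log2 changes of 0.15 and -0.18. Of 7 listed shoot markers, 3 had one, and their summed signal was 664 and 793 in nlp7-1 and 813 and 1009 in wild type. Their log2 changes were -0.64 for LHCB4.1, -0.39 for LHCB4.2 and -0.02 for RCA. The part of these markers in the segment's shift was not tested.

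NLP7 (NIN-LIKE PROTEIN 7) is a transcription factor that carries nitrate signals to the nucleus and binds the promoters of many nitrate-responsive genes. Genes that sit side by side on an Arabidopsis chromosome are mostly separate transcription units with unrelated roles. Exceptions are tandem arrays of related genes, which often arise by local duplication and can cross-hybridise on arrays. The segment holds both kinds: housekeeping genes of respiration, translation and glycolysis, and arrays of glycosyltransferase, peptide transporter and oxidase genes.

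Of the 308 genes, 190 had a probe set with a mean log2 signal at or above the 40th percentile of the array, a signal of 59.4, and these are called kept genes here. The other 118 had none. Of the 190, 13 had a mean wild-type signal below 59.4 and were kept through their nlp7-1 arrays. The median signal over the 190 kept genes was 389 and 372 in the nlp7-1 samples, against 219 and 201 in the wild-type samples. Over 7074 kept genes placed elsewhere, the median signals were 212 and 214 in nlp7-1 and 213 and 212 in wild type. The mutant arrays stood above the wild-type arrays for the segment, and the genotypes were level for the other genes. The median log2 change of the 190 genes was 0.84, or 1.79-fold, with quartiles of 0.67 and 0.98. It was -0.001 over the genes placed elsewhere. In whole roots, more cells of a type and more RNA per cell cannot be told apart.

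**Figure D1:**
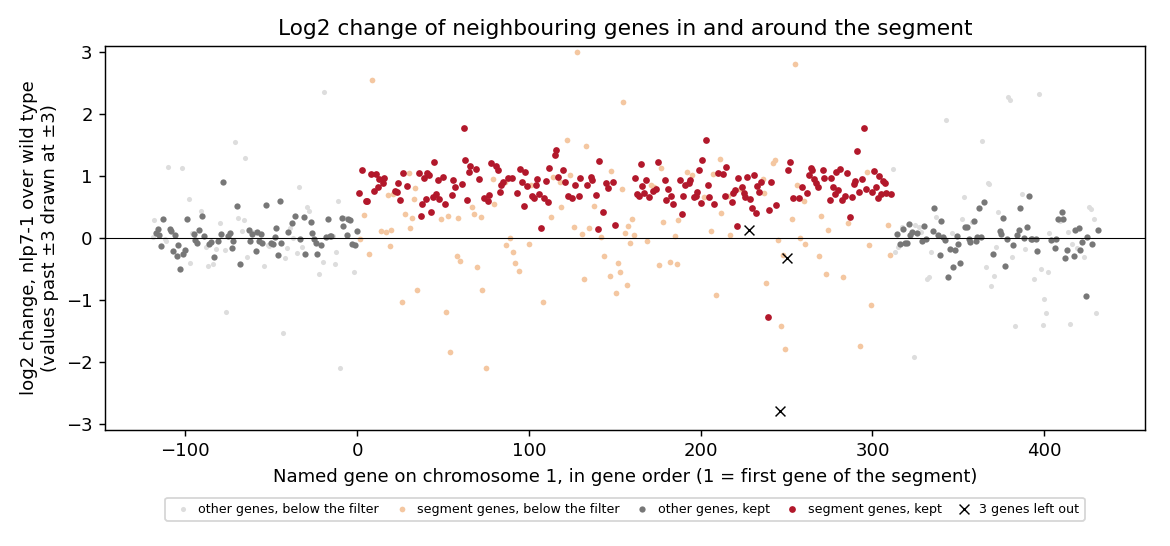
Log2 change (nlp7-1 over wild type, vertical axis) of each named gene on chromosome 1 in gene order, with 120 named genes on either side of the segment. Each point is 1 gene: kept segment genes (dark red) form a band around a median of 0.84 with sharp ends, kept genes outside (grey) scatter around 0, genes below the filter are pale, and crosses mark the 3 genes left out.

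Nearly all kept genes of the segment moved together. Of the 190 kept genes, 189 had a log2 change above 0, and 168 (88.4%) were at least 1.5-fold higher in nlp7-1, against 1.57% of the kept genes placed elsewhere. At least 2-fold was reached by 44 segment genes, and 22 stayed under 1.5-fold. Counted by probe set, both nlp7-1 arrays exceeded both wild-type arrays in 187 of the 194 kept members, where 23.2% of all kept probe sets did. In 1 member both were lower, where 20.9% of all kept probe sets were, and 6 overlapped. The limma fit over all 13648 kept probe sets called 111 of the 194 higher and 0 lower at a Benjamini-Hochberg adjusted p under 0.05, where 1.64% of all kept probe sets were called higher and 2.27% in either direction. Because this contrast chose the segment, these counts only describe it. The 111 had a median log2 change of 0.95 and a median SE of 0.13, and the 83 others had 0.66 and 0.18. In 76 of those 83, both nlp7-1 arrays were higher than both wild-type arrays. Without nlp7-1 replicate 1 the count of called members was 0, and without nlp7-1 replicate 2 it was 5. The median log2 change was 0.82 and 0.86 in the same fits.

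Over kept genes, the shift was seen in both samples of each genotype and along the whole segment. Relative to each gene's mean over the 4 arrays, the median kept segment gene stood at 0.45 and 0.41 on the log2 scale in the nlp7-1 samples, and at -0.40 and -0.42 in the wild-type samples. The median log2 difference of replicate 2 from replicate 1 over the segment was -0.05 in nlp7-1 and -0.02 in wild type. Gene by gene the replicates differed more, with scaled median absolute deviations of these differences of 0.20 in nlp7-1 and 0.25 in wild type. These differences within a genotype played no part in the choice of the segment. Split into 10 consecutive stretches of 19 kept genes, the median log2 change ran from 0.72 (AT1G25510 to AT1G26580) to 0.95 (AT1G26620 to AT1G27030 and AT1G22180 to AT1G22750). Over 88 stretches of 19 kept genes elsewhere on chromosome 1, the medians ran from -0.13 to 0.14. Within the segment, a gene's change said little about its neighbour's: across 189 adjacent pairs, which share the same arrays, Pearson's r of the log2 changes was 0.05, and 0.02 across 1688 adjacent pairs of the rest of chromosome 1.

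**Figure D2:**
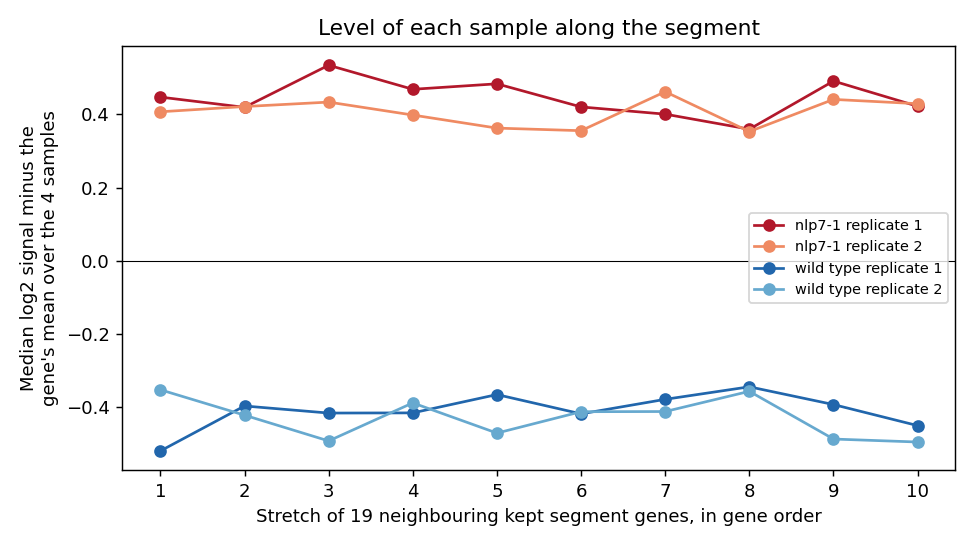
Median log2 signal of each sample, relative to each gene's mean over the 4 samples (vertical axis), in 10 stretches of 19 neighbouring kept genes along the segment (horizontal axis). Each line is 1 array: both nlp7-1 lines lie between 0.35 and 0.53 in every stretch, and both wild-type lines between -0.52 and -0.34.

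The spread around the shift was close to that of genes elsewhere. The scaled median absolute deviation (MAD, equal to the SD for normal values) of the log2 changes was 0.23 over the segment genes and 0.20 over the kept genes placed elsewhere. Of the segment genes, 139 (73.2%) lay within 0.25 of the segment median, as did 75.3% of the other genes around theirs. Within 0.5 lay 180 segment genes (94.7%) and 94.7% of the other genes. Of the 10 segment genes farther out, 5 lay above and 5 below. Among those above, AT1G22160, AT1G24600 and AT1G27120 had wild-type means of 51.5, 49.3 and 44.2. These were below the filter signal, and the genes were kept through their nlp7-1 arrays. Since 0 kept genes had an nlp7-1 mean below the filter, the split does not measure symmetry around the shift.

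Kept genes of low and high signal were shifted. Split by mean signal into 3 classes of near-equal size, the median log2 change was 0.73 over the 63 dimmest genes, 0.86 over the 63 in the middle and 0.85 over the 64 brightest. Medians over other genes in the same ranges of signal were 0.01, -0.002 and -0.01. Across the 190 genes, Pearson's r between log2 change and mean log2 signal was 0.004, a description of genes that share the same arrays. Of these genes, 13 had a wild-type mean below the filter signal and 0 had an nlp7-1 mean below it. The filter thus favoured raised genes near its level, so the dimmest class and this r are no test of evenness across signals. The 30 brightest segment genes had a median of 0.76.

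**Figure D3:**
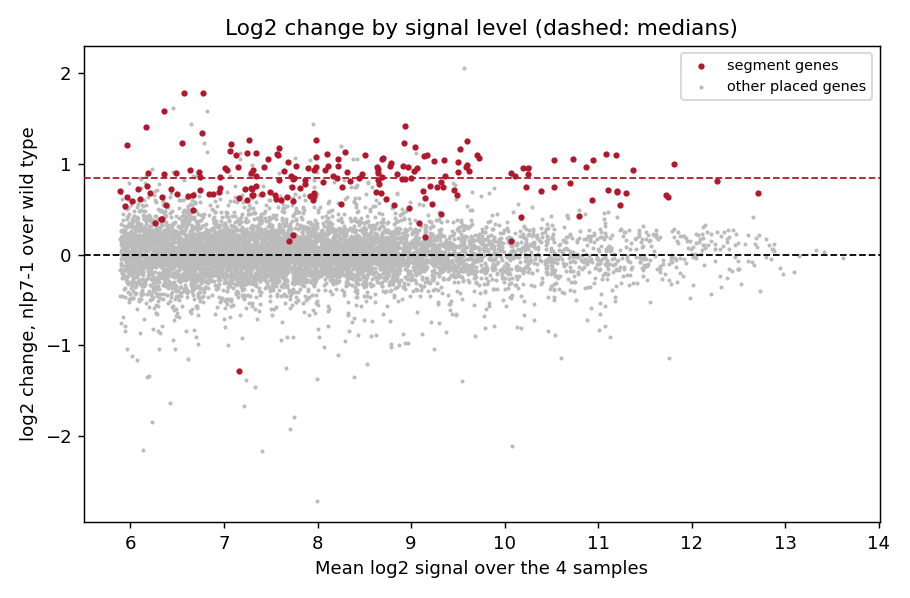
Log2 change (nlp7-1 over wild type, vertical axis) against the mean log2 signal over the 4 samples (horizontal axis) for kept genes, 1 point each. The 190 segment genes (red) lie mostly above 0.5 at all signals, around an overall median of 0.84 (red dashed line), while the other placed genes (grey) centre on 0 (black dashed line).

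Below the filter the picture was different. The 120 member probe sets there had a median log2 change of 0.17, between -2.10 and 3.31, and 73 of them (60.8%) were above 0. In 41 both nlp7-1 arrays were higher than both wild-type arrays, and in 18 both were lower; among all probe sets below the filter these shares were 16.3% and 18.6%. For 67 genes with mean signals from 16 to the filter level the median was 0.17 with a scaled MAD of 0.42, and for 51 genes under 16 it was 0.21 with 1.17. In the lowest of these bands the scaled MAD of the difference between replicates was 1.21 in nlp7-1 and 1.19 in wild type, and in the band above it 0.34 in nlp7-1 and 0.49 in wild type. GH9B6, a cellulase-family gene, had the highest log2 change below the filter, with signals of 32.7 and 63.5 in nlp7-1 and 7.69 and 2.76 in wild type. Choice of this gene followed its value.

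The ends of the segment were abrupt. AT1G20910, the first kept gene, had signals of 245 and 165 in nlp7-1, against 140 and 105 in wild type. AT1G20950, the next, encodes a subunit of the pyrophosphate-dependent phosphofructokinase of sugar metabolism and had 3522 and 3278 in nlp7-1, against 1600 and 1591 in wild type. Its log2 change was 1.09 ± 0.09 (SE), with the mutant arrays far above the wild-type arrays. The first 5 kept genes had log2 changes from 0.60 to 1.09. The 5 kept genes just outside had -0.11 to 0.31. The nearest of these, AT1G20890, had 232 and 239 in nlp7-1 and 239 and 199 in wild type, which overlap. Its log2 change of 0.11 ± 0.14 was -0.021 without wild type replicate 2.

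At the far end the last 5 kept genes had log2 changes from 0.70 to 0.92. The last one, AT1G27530, encodes the E2-like conjugating enzyme of the ubiquitin-like modifier UFM1. It had 2750 and 2895 in nlp7-1, against 1725 and 1714 in wild type, 1.64-fold higher with little spread. GUT2, which encodes a glucuronoxylan synthesis enzyme of secondary walls, had 206 and 199 in nlp7-1, against 113 and 135 in wild type. The 5 kept genes after the segment ran from -0.10 to 0.15. AT1G27595, the nearest, had 127.6 and 140.6 in nlp7-1 and 120.1 and 136.2 in wild type. Its log2 change of 0.07 ± 0.15 was -0.0031 without nlp7-1 replicate 2 and -0.024 without wild type replicate 1. ATU2AF35A, which encodes a small subunit of the splicing factor U2AF, lies a little farther on and had 261 and 302 in nlp7-1 and 230 and 280 in wild type. Over the 60 kept genes on each side, the median was 0.03 before and 0.01 after the segment. Because the ends were drawn where the values change, part of this contrast is built in.

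Genes of different roles were shifted the same way. The role lists were drawn up from general knowledge of the loci with the shift already known, and of 200 listed loci 66 were members and 46 kept. All 46 were above 0, with a median log2 change of 0.86, against 0.83 over the 144 kept genes in no list. Those in no list include AT1G26250, an extensin-like gene of the cell wall with a log2 change of -1.28. Its role would place it in the cell wall list, so that all 46 were above 0 depends on how the lists were drawn. limma called 25 of the 46 and 84 of the 144 higher. It called 57.2% of the kept member probe sets higher, and 1.64% of all kept probe sets. Both nlp7-1 arrays exceeded both wild-type arrays in 187 of the 194 kept members and in 23.2% of all kept probe sets. Counts of calls and of genes without overlap in the paragraphs below are to be read beside these shares. Among lists with at least 2 kept genes, medians ran from 0.66 for 3 signalling genes to 1.17 for 2 genes of sugar metabolism, and no list was set apart by a test.

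The protein synthesis list had 6 kept members, 5 of them called higher, with log2 changes from 0.81 to 1.25. AT1G26880, which encodes ribosomal protein L34, had 6948 and 6126 in nlp7-1, against 3749 and 3673 in wild type. AT1G27400, for ribosomal protein L17, had 5203 and 4964 in nlp7-1, against 2626 and 2480 in wild type. These genes were 1.76-fold and 1.99-fold higher in the mutant, with no overlap. AT1G23410 encodes ubiquitin fused to ribosomal protein S27a and had 1198 and 1198 in nlp7-1, against 499.6 and 509 in wild type. AT1G22270, of the Trm112 family that activates methyltransferases of tRNA and translation factors, had 1168 and 1032 in nlp7-1, against 462 and 521 in wild type. These were 2.38-fold and 2.24-fold higher.

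Genes of energy and sugar metabolism were also higher. CYTC-1, for cytochrome c of the respiratory chain, had 8323 and 8616 in nlp7-1, against 5458 and 5111 in wild type, a log2 change of 0.68 ± 0.08 (SE). AT1G22520, of the family of a subunit that shapes mitochondrial cristae, had 1221 and 1214 in nlp7-1, against 599 and 543 in wild type. Both kept genes of the mitochondrial list were called higher. AT1G22170, of the phosphoglycerate mutase family, had 278 and 205 in nlp7-1, against 117 and 84.9 in wild type. Its log2 change was 1.26, and 0.76 with a pseudocount of 100. AT1G22410, for the enzyme that opens the shikimate pathway, had 4585 and 3938 in nlp7-1, against 2666 and 2749 in wild type.

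The ubiquitin and proteasome list had 6 kept members, 3 called higher, from 0.60 to 1.41. AT1G23030, a U-box ligase gene, was at the top with 856 and 745 in nlp7-1, against 335 and 268 in wild type. LCR, an F-box gene and target of a microRNA, had 673 and 635 in nlp7-1, against 388 and 349 in wild type. AT1G26800, a RING-finger gene, had 648 and 766 in nlp7-1, against 403 and 523 in wild type, with a wider spread and no call. SKP2A, whose F-box product acts in cell cycle control, marked the low end at 0.60 and is named after its value was seen.

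The cell wall list, which leaves out the extensin-like AT1G26250 (-1.28), had 5 kept members, 2 called higher, from 0.72 to 1.40. AT1G27120, a galactosyltransferase gene at the top of this range, had 110 and 123 in nlp7-1, against 42.7 and 45.7 in wild type. Its mean wild-type signal of 44.2 was below the filter, and it was kept through its nlp7-1 arrays. CSLA03, a mannan synthase gene, had 458 and 403 in nlp7-1, against 280 and 215 in wild type. AT1G23460, of the polygalacturonase family, had 219 and 209 in nlp7-1, against 127 and 104 in wild type, a log2 change of 0.89, and of 0.54 with a pseudocount of 100. AT1G23205, of the pectin methylesterase inhibitor family, had 174 and 160 in nlp7-1, against 81.8 and 105 in wild type. None of these 4 genes overlapped between genotypes. AT1G23460 is read by a probe set that the array's naming marks as able to match several transcripts, as is true of 2 other members.

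Kept genes of the membrane transport and vesicle traffic lists were higher in nlp7-1, by unequal amounts. The membrane transport list had 4 kept members, 1 called higher, from 0.39 to 0.90. AT1G26130 was the lowest, at 0.39 ± 0.19 (SE). The 4 members of this list below the filter had a median log2 change of 0.30. The tandem trio AT1G22540, AT1G22550 and AT1G22570, of the NPF family of nitrate and peptide transporters, had log2 changes of 0.75 ± 0.17, 0.85 ± 0.14 and 0.90 ± 0.20 (SE). AT1G22550 had 611 and 502 in nlp7-1, against 321 and 293 in wild type. AT1G26690, of the p24 family of cargo receptors in the early secretory pathway, had 704 and 578 in nlp7-1, against 325 and 397 in wild type. AT1G21380, of the TOM1-like family that sorts ubiquitinated cargo, had 667 and 593 in nlp7-1, against 345 and 335 in wild type. AT1G22860, of the VPS39 tethering family, and AT1G22870, of the SCYL2 family of clathrin traffic, had log2 changes of 0.86 ± 0.14 and 0.95 ± 0.14. With a pseudocount of 100 both had 0.53. The 4 kept genes of the vesicle traffic list ran from 0.83 to 0.95.

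The lists for RNA, signalling and transcription had few kept members. LSM3A, of the ring that binds RNA in splicing and decay, had 497 and 473 in nlp7-1, against 242 and 284 in wild type. AT1G23230, for subunit MED23 of the Mediator complex, had 374 and 333 in nlp7-1, against 193 and 169 in wild type. AT1G24310, for the nuclear pore protein NUP54, had 113 and 116 in nlp7-1, against 84.5 and 61.2 in wild type. All 3 were free of overlap, and 2 were called. AT1G27190, a leucine-rich repeat receptor kinase gene, had 755 and 730 in nlp7-1, against 388 and 378 in wild type. GI (GIGANTEA), a clock and flowering gene with strong daily cycles, had 651 and 557 in nlp7-1, against 495 and 361 in wild type. AT1G21200, a trihelix transcription factor gene, had 221 and 262 in nlp7-1, against 118 and 129 in wild type. Its log2 change was 0.97, and 0.61 with a pseudocount of 100. Of the 10 members on the transcription factor list, which does not cover all such genes of the segment, 2 were kept, and the 8 below the filter had a median log2 change of 0.21. AT1G24510, for a subunit of the CCT chaperonin that folds actin and tubulin, had 3132 and 3237 in nlp7-1, against 1389 and 1585 in wild type.

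The plastid list had 4 kept members, from 0.63 to 0.72, of which 0 were called in limma. MENG, for a methyltransferase of phylloquinone synthesis, had 134 and 183 in nlp7-1, against 98.4 and 96.1 in wild type. AOR, for a reductase of reactive carbonyls, had 93.9 and 93.0 in nlp7-1, against 56.5 and 60.1 in wild type. SECA2, for a plastid protein translocation ATPase, had 77.0 and 77.9 in nlp7-1, against 48.3 and 52.0 in wild type. In all 3 the genotypes did not overlap. AOR and SECA2 had mean wild-type signals of 58.3 and 50.2, below the filter, and were kept through their nlp7-1 arrays.

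**Figure D4:**
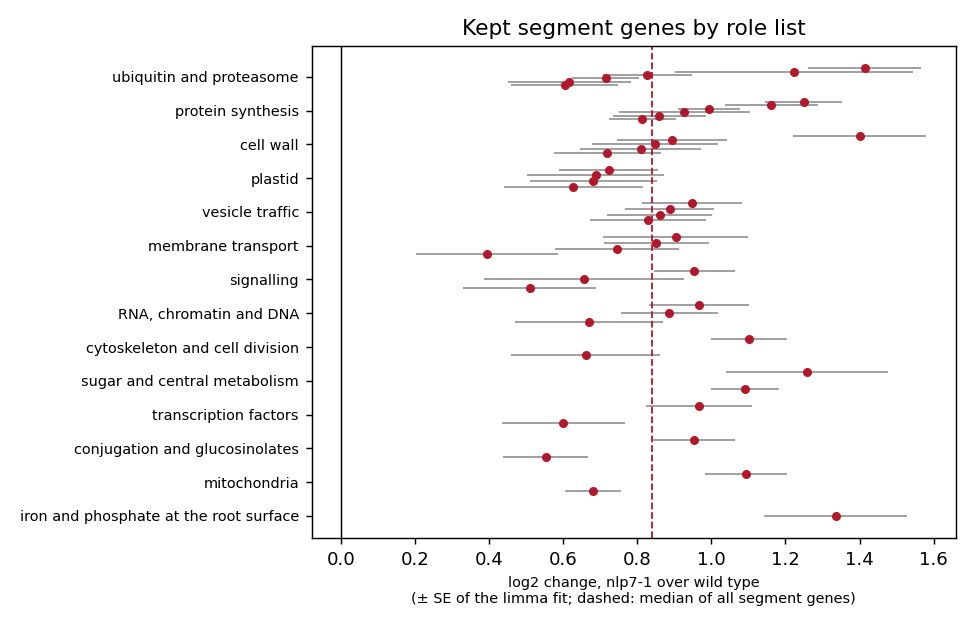
Log2 change (nlp7-1 over wild type, horizontal axis) with the SE of the limma fit (grey bars) for each kept gene of the 14 role lists (rows). All 46 points lie right of 0, and the lists scatter around the median of all kept segment genes, 0.84 (dashed line). AT1G26250, a cell wall gene at -1.28, is in no list and is not drawn.

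Relatives in the UGT85A tandem array lay on both sides of the filter, and those below it changed in both directions. UGT85A2, one of a row of glucosyltransferase genes, had 1600 and 1785 in nlp7-1, against 837 and 911 in wild type. Its neighbours UGT85A7, UGT85A5 and UGT85A3 were below the filter, with log2 changes of -0.48, 0.33 and -0.84. UGT85A7 had 48.59 and 39.95 in nlp7-1 and 60.96 and 61.81 in wild type. These 3 are named after their values were seen. UGT74B1, of glucosinolate synthesis, lies elsewhere in the segment and had 759 and 695 in nlp7-1, against 506 and 484 in wild type.

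Genes above the common shift were 5 in number at more than 0.5 over the median. AT1G22160, of the FLZ zinc-finger family, had 193 and 161 in nlp7-1, against 47.5 and 55.4 in wild type. AT1G27200, of a glycosyltransferase family, had 190 and 218 in nlp7-1, against 70.8 and 49.8 in wild type. AT1G24600 had 166 and 120 in nlp7-1, against 63.0 and 35.6 in wild type. Mutant and wild-type arrays were far apart in all 3, with log2 changes of 1.78 ± 0.18, 1.78 ± 0.21 and 1.58 ± 0.31 (SE). AT1G23030 and AT1G27120, described above, completed the 5. LPR1, for a multicopper oxidase of the root response to low phosphate, came just after with 190 and 158 in nlp7-1, against 78.4 and 60.0 in wild type. Of the 10 genes with the largest changes, 3 had a mean wild-type signal under the filter level. With a pseudocount of 100 the log2 changes of AT1G22160, AT1G27200, AT1G27120 and LPR1 were 0.87, 0.93, 0.59 and 0.69.

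Few kept member genes escaped the shift. The 3 genes left out by the rule also passed the filter and did not follow the shift. Their log2 changes were 0.12 (AT1G25550), -2.80 (AT1G26380) and -0.33 (AT1G26420), and they are described below. Among kept members, only AT1G26250, a proline-rich extensin-like gene of the cell wall, had a log2 change below 0, at -1.28 ± 0.37 (SE). Its signals were 71.5 and 118 in nlp7-1, against 158 and 314 in wild type. Both mutant arrays were lower, and within each genotype replicate 2 was over 1.5 times replicate 1. Its kept neighbours AT1G26180 and AT1G26270 had log2 changes of 0.90 and 0.44. AT1G26240, a relative beside it and below the filter, had 35.2 and 29.2 in nlp7-1 and 39.6 and 71.5 in wild type, and was named after its values were seen.

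The other 4 genes more than 0.5 under the median overlapped between genotypes. AT1G23390, a kelch-repeat F-box gene, had 926 and 1384 in nlp7-1 and 846 and 1237 in wild type. AT1G22890 had 177 and 270 in nlp7-1 and 141 and 275 in wild type. In both genes replicate 2 was well above replicate 1 in either genotype, and the replicates differed more than the genotypes. AT1G25400 had 599.5 and 617 in nlp7-1 and 444 and 634 in wild type. AT1G23560 had 293 and 181 in nlp7-1 and 203 and 194 in wild type. Log2 changes of these 4 were 0.15 ± 0.24, 0.15 ± 0.34, 0.20 ± 0.18 and 0.21 ± 0.23 (SE), and each turned negative without 1 sample. Without nlp7-1 replicate 2 AT1G23390 and AT1G22890 had -0.14 and -0.15, and without wild type replicate 1 -0.13 and -0.33. AT1G25400 had -0.061 without wild type replicate 1, and AT1G23560 had -0.13 without nlp7-1 replicate 1.

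The next in order had small positive changes. AT1G27060, AT1G21580, AT1G24290 and AT1G26130 had log2 changes of 0.34 ± 0.18, 0.35 ± 0.12, 0.39 ± 0.18 and 0.39 ± 0.19 (SE). AT1G21580, a zinc-finger gene with the smallest SE of these, had 624 and 598 in nlp7-1, against 509 and 454 in wild type. Both of its probe sets were low, at 0.35 and, below the filter, 0.22. AT1G21680 had 1146 and 1546 in nlp7-1 and 751 and 1334 in wild type, which overlap, and its log2 change of 0.41 ± 0.28 was -0.0034 without wild type replicate 1. Kept neighbours of these 10 low genes, 20 in all, had log2 changes from 0.44 to 1.25 with a median of 0.87. Among kept genes, the low genes were single and scattered, with shifted genes on both sides. Nearly all kept genes are shifted, so this was largely given in advance. Members below the filter were passed over as neighbours, and some of those beside low genes had log2 changes below 0. In 6 of the 10, replicate 2 was above replicate 1 in both genotypes, as in 54 of all 190 kept genes.

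**Figure D5:**
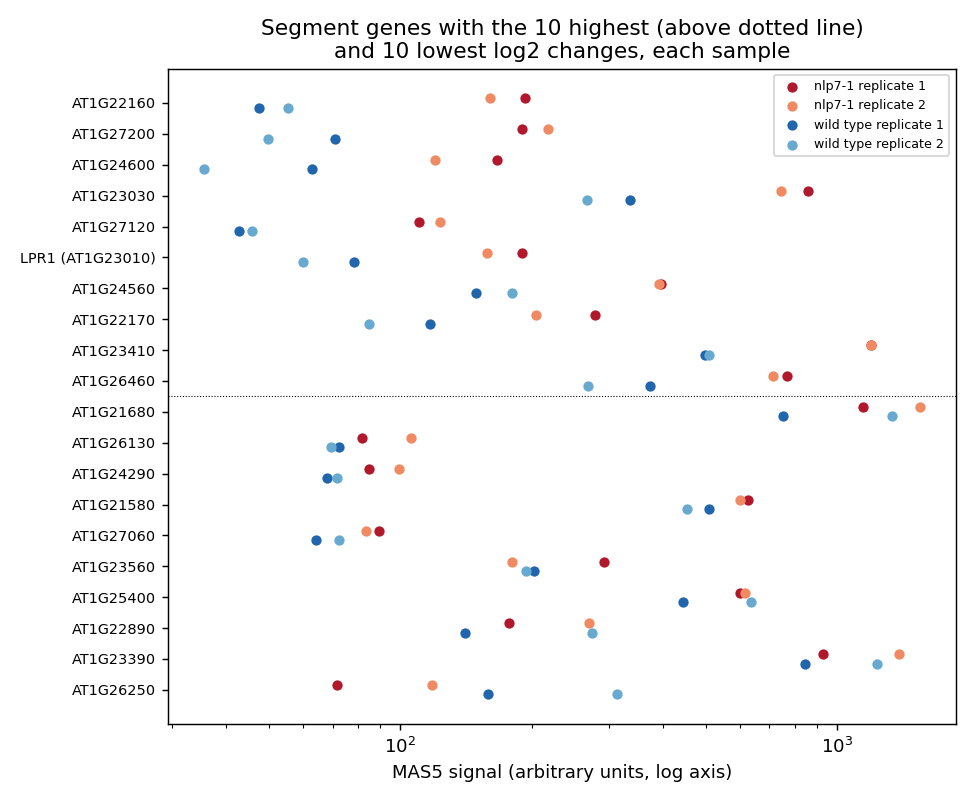
MAS5 signal of each sample (log axis) for the 10 kept segment genes with the highest log2 changes (above the dotted line) and the 10 with the lowest (below it), nlp7-1 in reds and wild type in blues. In the upper 10 the genotypes do not overlap, and in 6 of the lower 10 they do or, for AT1G26250, stand the other way round.

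Genes read by more than 1 probe set allowed a comparison within genes, and all of them with a pair of kept probe sets are given. AT1G26300 had log2 changes of 0.90 ± 0.13 and 1.01 ± 0.13 (SE) in its pair of probe sets, and AT1G22330 had 1.11 ± 0.17 and 1.19 ± 0.19. AT1G21830 had 0.98 ± 0.22 and 0.50 ± 0.17, and AT1G23440, of a peptidase family, 0.74 ± 0.14 and 0.42 ± 0.14. All 8 of these probe sets were higher in nlp7-1, but those of the last pair of genes differed in size. AT1G23640, with both probe sets below the filter, had 0.07 and -0.46.

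Probe sets shared by several genes are not members, and 8 of them name only genes of this stretch. The 6 of these that passed the filter had log2 changes from 0.69 to 1.00, with no overlap between genotypes. One of them, shared by AT1G24800 and 4 other loci, had 1784 and 1808 in nlp7-1, against 1029 and 1206 in wild type. The 2 below the filter had 0.69 and 0.18 at signals under 20. The 3 genes that the rule left out differed from their surroundings. AT1G25550, a GARP-family transcription factor gene, had 939 and 868 in nlp7-1, against 833 and 829 in wild type, a log2 change of 0.12 ± 0.11 (SE). AT1G26380 and AT1G26420, of the FAD-linked oxidase family, had -2.80 ± 0.51 and -0.33 ± 0.14. Their relatives AT1G26390, AT1G26400 and AT1G26410, which are members below the filter, had -1.42, -0.28 and -1.80, and are named after their values were seen.

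Summed over all members, the signal was 155679 and 156289 in nlp7-1, against 88486 and 91548 in wild type. That is 2.05% and 2.06% of the whole array's summed signal in nlp7-1, and 1.17% and 1.20% in wild type.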

How the data were processed

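Whole-root RNA of 2 nlp7-1 and 2 wild-type samples was read on ATH1 arrays. The authors deposited 1 linear intensity per probe set and array. The submitters' processing notes name MAS5, without a version. Detection calls and scan dates were not used here. The 64 control probe sets were left out. GEO's platform annotation names 1 gene for 13513 probe sets, and the RefSeq gene table of TAIR10.1 placed 13436. It was used only for names and for gene order, which was taken from its start positions. Roles of loci without a symbol there are general background. Values went to log2 with no pseudocount. Probe sets with a mean log2 at or above the 40th percentile (13648) entered limma 3.58.1 in R 4.3.3 (lmFit, eBayes with a trend, two-sided). p-values were adjusted over all of them and judged at 0.05. The fit was tested on simulated data. Each gene is represented by its brightest kept probe set. Members, role lists and the naming rule were chosen with earlier results of these data known. Named were the 5 genes inside and outside each end, the 10 lowest and highest changes, the 5 brightest, up to 4 per role list, genes with discordant probe sets and the 3 left out. With 2 arrays per genotype, the number of arrays limits precision. An exact permutation test over 2 against 2 samples cannot reach 0.05 and was not used. Alternatives were other filters, pseudocounts, normalizations, variance priors, a replicate block and each sample left out. The labels do not say that replicate numbers mark a shared plate or day.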

Additional observations from a re-analysis of the deposited data

How the results depend on the processing

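The median log2 change of segment genes was 0.84. It moved by more than the spread between replicate medians without a filter (0.72, over all 308 genes) and with pseudocounts of 32 (0.73) and 100 (0.62). With each sample left out it ran from 0.82 to 0.86. The count of segment probe sets called higher, 111, was 47 without a trend in the variance prior, when the number of all probe sets called was 116 and not 310. With the replicate number as a block the counts were 176 and 1290. Same-numbered samples deviated together (r = 0.44), but the labels do not say what the numbers share. With each sample left out, which leaves a genotype with 1 array assumed to vary like the other genotype, the counts ran from 0 to 141 and from 14 to 770. With a pseudocount of 100, 9 of the 32 named genes with a call moved by over 1.5 times: AT1G22160 (0.87), AT1G27200 (0.93), AT1G22170 (0.76), AT1G23010 (0.69), AT1G21200 (0.61), AT1G27120 (0.59), AT1G23460 (0.54), AT1G22860 (0.53) and AT1G22870 (0.53). Some signs turned with a sample left out. Without nlp7-1 replicate 1 these were AT1G23560 (-0.13), AT1G20840 (0.015) and AT1G20880 (0.13). Without nlp7-1 replicate 2 they were AT1G23390 (-0.14), AT1G22890 (-0.15) and AT1G27595 (-0.0031). Without wild type replicate 1 they were AT1G25400 (-0.061), AT1G21680 (-0.0034), AT1G23390 (-0.13), AT1G22890 (-0.33), AT1G27595 (-0.024) and AT1G27690 (0.035). Without wild type replicate 2 they were AT1G20840 (0.088), AT1G20880 (0.021), AT1G20823 (-0.029), AT1G20890 (-0.021) and AT1G27670 (0.046). At the other end of their ranges with a sample left out stood AT1G20823 (0.60), AT1G20840 (-0.29), AT1G20880 (-0.35), AT1G20890 (0.24), AT1G21680 (0.83), AT1G22890 (0.64), AT1G23390 (0.44), AT1G23560 (0.56), AT1G25400 (0.45), AT1G27595 (0.16), AT1G27670 (-0.22) and AT1G27690 (-0.19). The cause was not tested. No other alternative that was run turned the sign of a named gene.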
